A study of Rattus norvegicus with 48 samples.

Results

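The data described here are the early-phase exercise comparison in 2 fat depots of male adolescent rats: 24 of the 48 libraries of the series, chosen by their labels and not by any measured value. They come from 12 rats, 6 that were exercised in the early active phase (EAE) and 6 sedentary early-phase controls (EAC), with 1 library from subcutaneous (SAT) and 1 from visceral adipose tissue (VAT) for each. The early phase belongs to zeitgeber time 13, where zeitgeber time counts the hours after lights on. All rats were at postnatal day 61, and the final session lay 24 h back. The other 24 libraries are the late-phase groups at zeitgeber time 23, exercised (LAE) and sedentary (LAC), and serve here only to ask whether early exercise differed from late exercise. The labels used here name no strain, form of exercise or visceral fat pad. Replicate numbers 1 to 6 follow the labels. The labels give no animal number, and libraries of both depots with the same group and letter were taken as 1 rat.

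Fat depots store triglyceride and release fatty acids and hormones. In a bout of exercise, fasting or stress, sympathetic and hormonal signals raise the release of fatty acids, and training is known to alter fat cell size, blood flow and the enzymes of fat metabolism. Subcutaneous and visceral fat differ in cell make-up and in how they answer such signals, and much of the transcriptome of fat follows the time of day, so a comparison of exercised and sedentary animals has to be made at a matched hour. The study compared exercise at 2 times of day, and the early comparison in both depots is one arm of it.

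The deposited table names genes by Ensembl ID without symbols, and 0 of its 23481 IDs could be paired with a symbol, so results are given by counts, sizes and 4 IDs followed through every rat. For 3 of the IDs a rule took, in each depot, 1 higher and 1 lower gene, each with the smallest p at 5 CPM or more in a group. CPM is the count scaled to the library total in the usual way (counts per M, or mega, counts), given here after TMM scaling, an adjustment for library make-up. The rule chose ENSRNOG00000007545 as the higher gene in SAT and again in VAT, ENSRNOG00000043059 as the lower gene in SAT and ENSRNOG00000011474 as the lower gene in VAT. The fourth, ENSRNOG00000009565, had the second smallest p among higher genes in VAT and was chosen after its values were seen. Since all 4 were chosen for their p in these comparisons, their values are a description of what stood out. What these genes do is not stated here, and the tissue labels could not be checked against markers of fat or of other cell types.

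Before any gene is considered, some libraries stood apart. Totals of the 24 libraries ran from 13265565 to 17890033 counts, so a gene with 0 counts could still be present at up to 0.168 to 0.226 CPM (3 counts of the total, counting error only). A difference between EAE and EAC of a depot was not detectable in library total, in the number of genes with a count or in the median Spearman correlation with the other early libraries of the depot (6 two-sided exact permutation tests over 6 against 6 rats, lowest adjusted p = 0.879). In VAT, EAE replicate 3 and EAC replicate 5 had median correlations of 0.962 and 0.965, against 0.978 to 0.98 in the other 10 libraries, and 17034 and 16864 genes with a count, against 15959 to 16315. They shared 193 genes that were over 4-fold above the VAT median in both, of which 185 were tested in SAT, and there 0 of these genes stood as high in EAE replicate 3 and 9 in EAC replicate 5 of SAT. In SAT, EAE replicate 1 had the lowest correlation (0.957) and 14653 genes with a count, against 16287 to 16587 in the other 11 libraries, and it lay 7.86 median absolute deviations below the median of the 12 early SAT libraries. Among all 24 SAT libraries, late ones included, it lay 3.66 median absolute deviations below the median, short of the 5 used here, and LAE replicates 4 and 6 lay 11.5 and 11.2 below. The results below are given with all libraries and, where stated, also without the VAT pair, without their rats or without this SAT library.

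**Figure D1:**
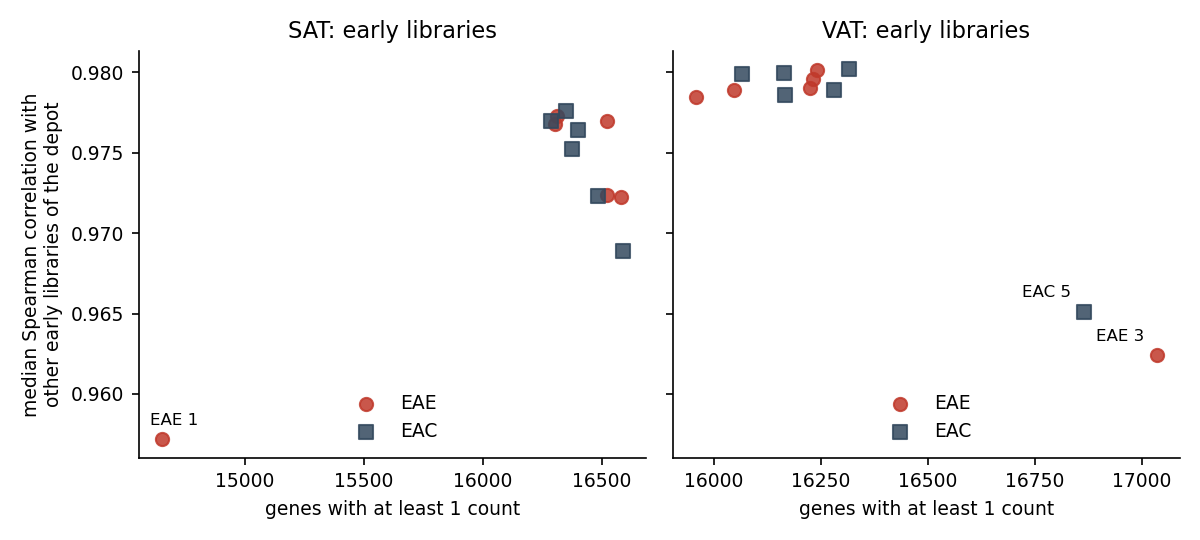
Genes with at least 1 count (x axis) against the median Spearman correlation of each library with the other early libraries of its depot (y axis), 1 point a library, 6 EAE and 6 EAC in each depot. SAT EAE replicate 1 lies at 14653 genes and 0.957, and VAT EAE replicate 3 and EAC replicate 5 lie at 17034 and 16864 genes; the other libraries of the groups overlap.

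In SAT no gene differed past the threshold between exercised and sedentary rats. In whole tissue, fewer cells of a type and less RNA per cell cannot be told apart. Of 13724 genes tested, 0 were called between EAE and EAC (0% of genes; edgeR's quasi-likelihood test, smallest adjusted p = 0.999), and 318 genes, 2.32% of those tested, were at an unadjusted p under 0.05, 144 higher and 174 lower in EAE. DESeq2 also called 0 (353 genes below that unadjusted limit), as did limma voom (525). Leaving out EAE replicate 1 kept the count of calls at 0 and gave 501 genes at an unadjusted p under 0.05, 318 higher and 183 lower. Without both rats whose VAT libraries stood apart the counts were 0 and 347. If no gene differed, a fraction of about 0.05 of the genes would fall below that unadjusted limit by chance. All the SAT counts given here stayed below that fraction. So did those given below for VAT, for the depot difference and for both depots together.

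In VAT the outcome was the same by count. Of 13531 genes 0 were called (0%; edgeR, smallest adjusted p of 1 after rounding), with 222 genes or 1.64% below the unadjusted limit of 0.05, of which 117 were higher and 105 lower in EAE. DESeq2 called 0 (216 below the unadjusted limit; its smallest adjusted p was 0.142) and limma voom 0 (500). Without EAE replicate 3 and EAC replicate 5 edgeR again called 0, now with 462 genes or 3.43% at an unadjusted p under 0.05, and the common biological coefficient of variation (the spread between rats beyond counting error) was 16% without the pair and 24.5% with it. Leaving out EAE replicate 3 alone gave 557 genes at an unadjusted p under 0.05 and leaving out EAC replicate 5 alone gave 389, both with 0 calls. All these VAT counts lay below the fraction of 0.05 of genes expected by chance.

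The intervals show how large a change could have been missed. The median absolute log2 value of EAE over EAC was 0.08 in SAT and 0.06 in VAT. The 95% interval of the change, not adjusted for the number of genes, lay wholly within 2-fold in either direction for 90.1% of genes in SAT and 92.1% in VAT, and within 1.5-fold for 73.5% and 77.4%. The share varied with level: at 50 CPM or more 92% of SAT genes and 94.5% of VAT genes had an interval within 1.5-fold, whereas from 1 to 5 CPM only 25.2% and 39.2% did. Fitted changes over 2-fold were seen for 48 higher and 26 lower genes in SAT and for 14 higher and 32 lower genes in VAT, and at 50 CPM or more for 1 higher and 2 lower genes in SAT and 1 of each in VAT. The interval lay within 2-fold for 70.5% of SAT genes and 79.3% of VAT genes from 1 to 5 CPM, and for 28.3% and 57.5% of those under 1 CPM. All these values are with all libraries. The share of SAT genes within 1.5-fold was 77% without EAE replicate 1 and 68.3% without the 2 rats whose VAT libraries stood apart. In VAT it was 77.9% without the pair that stood apart.

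**Figure D2:**
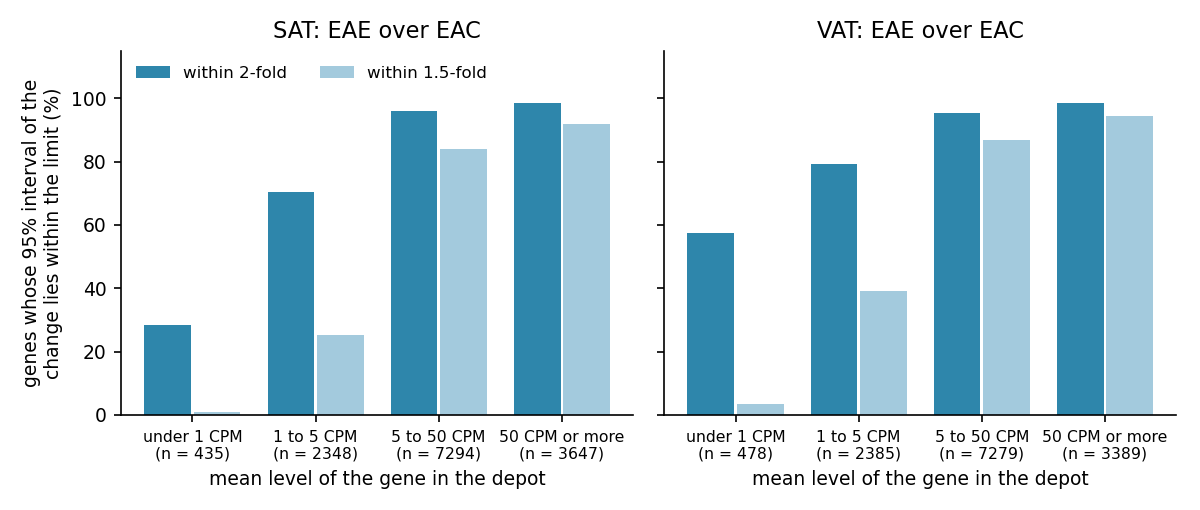
Share of genes (y axis, percent) whose 95% interval of the EAE over EAC change lies within 2-fold or within 1.5-fold, by mean level of the gene (x axis, CPM classes with their numbers of genes), in SAT and VAT with all libraries. Shares run from 28.3% under 1 CPM to 98.4% at 50 CPM or more for 2-fold in SAT, and from 57.5% to 98.6% in VAT.

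The gene that stood out in both depots was ENSRNOG00000007545. In SAT it had 92.1, 222.7, 175, 169.8, 181 and 111 CPM in EAE rats 1 to 6, against 93.6, 127, 84.9, 94.1, 94.8 and 97.4 CPM in EAC rats 1 to 6. Of the exercised values 4 lay above the highest sedentary value, and the lowest exercised value came from the SAT library that stood apart. The means were 159 ± 48.3 CPM in EAE and 98.6 ± 14.5 CPM in EAC (SD, n = 6 each), a fold of 1.61 with a 95% interval of 1.21 to 2.13 (log2 0.69 ± 0.19 SE, adjusted p = 0.999, edgeR), and without that library the log2 value was 0.81.

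In VAT of the same rats ENSRNOG00000007545 had 109.7, 200.02, 96.1, 176, 166 and 122 CPM in EAE rats 1 to 6, against 88.3, 103, 57.7, 82.9, 75.5 and 52.9 CPM in EAC rats 1 to 6. Of the exercised rats 5 were above every sedentary rat and the other, EAE replicate 3, was above all but EAC replicate 2. The means were 145 ± 41.5 CPM in EAE and 76.6 ± 18.8 CPM in EAC (SD, n = 6 each), a fold of 1.89 with an interval of 1.39 to 2.58 (log2 0.92 ± 0.21, the smallest p of all 13531 genes, adjusted p of 1 after rounding, edgeR; DESeq2 adjusted p = 0.142). Without the pair that stood apart the means were 155 ± 37.9 CPM in EAE and 76.9 ± 21.1 CPM in EAC (SD, n = 5 each) and the log2 change 1.01 ± 0.21 (adjusted p = 0.999, edgeR). Leaving out any 1 library kept the log2 change between 0.57 and 0.81 in SAT and between 0.81 and 1.02 in VAT.

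The lower gene that stood out in VAT, ENSRNOG00000011474, was also lower in SAT. In VAT it had 64.2, 62.3, 41.5, 51.4, 95.6 and 84.5 CPM in EAE rats 1 to 6, against 139, 70.6, 140.3, 165, 82.0 and 212 CPM in EAC rats 1 to 6. All exercised values lay below the sedentary median, but the 2 lowest sedentary rats, replicates 2 and 5, overlapped with the exercised range. The VAT means were 66.6 ± 20.2 CPM in EAE and 134.7 ± 52.5 CPM in EAC (SD, n = 6 each), a fold of 0.494 with an interval of 0.329 to 0.743 (log2 -1.02 ± 0.27, adjusted p of 1 after rounding, edgeR; DESeq2 adjusted p = 0.53).

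In SAT ENSRNOG00000011474 had 28.0, 40.5, 42.5, 37.1, 46.9 and 32.4 CPM in EAE rats, against 48.0, 45.7, 67.2, 75.5, 33.4 and 79.2 CPM in EAC rats. Here too all 6 exercised values were below the sedentary median, and sedentary replicates 2 and 5 lay within the exercised range. The fold was 0.652 with an interval of 0.482 to 0.882 (means 37.9 ± 6.91 CPM in EAE and 58.2 ± 18.4 CPM in EAC, adjusted p = 0.999, edgeR), and without the 2 rats whose VAT libraries stood apart the log2 change was -0.76 ± 0.18, against -0.62 ± 0.20 with them. Without SAT EAE replicate 1 it was -0.53. In sedentary rats the levels of the gene in the depots went together over the 6 rats (Pearson's r = 0.848, exact permutation p = 0.0306; Spearman's rho = 0.943, exact p = 0.0167; r = 0.734 without the 2 rats farthest from the SAT median), but not after adjustment over 8 such tests (adjusted p = 0.122). In exercised rats r was -0.0195 (exact p = 0.974).

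ENSRNOG00000043059 was the lower gene chosen in SAT. In SAT it had 10.8, 14.1, 11.98, 14.3, 12.1 and 14.9 CPM in EAE rats, against 16.8, 16.9, 16.8, 14.8, 19.5 and 17.5 CPM in EAC rats. Of the exercised rats 5 lay below every sedentary rat, and the other lay just above the lowest sedentary rat. The fold was 0.766 with an interval of 0.663 to 0.885 (means 13.1 ± 1.65 CPM in EAE and 17.1 ± 1.52 CPM in EAC, SD, n = 6 each, adjusted p = 0.999, edgeR), and without SAT EAE replicate 1 the log2 value was -0.33 in place of -0.39. In VAT its values ran from 11.2 to 15.1 CPM in EAE and from 10.9 to 17.3 CPM in EAC, a fold of 0.955 with an interval of 0.801 to 1.14. The difference between the depots, VAT minus SAT, was 0.31 ± 0.15 on the log2 scale (unadjusted p = 0.0452, adjusted p of 1 after rounding, edgeR), which did not pass the threshold. The gene was chosen for its small p in SAT, and the same SAT values enter this difference. Its unadjusted p is therefore no independent test of a depot difference.

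ENSRNOG00000009565 was higher in VAT and varied among exercised rats. In VAT it had 10.2, 19.6, 14.7, 16.5, 10.4 and 11.1 CPM in EAE rats, against 7.97, 11.2, 7.85, 7.26, 7.81 and 7.33 CPM in EAC rats. In SAT it had 12.6, 36.3, 20.4, 24.1, 14.8 and 14.6 CPM in EAE rats, against 11.4, 17.8, 15.3, 11.1, 13.5 and 17.5 CPM in EAC rats. The exercised rats 2, 4 and 3 were the highest in that order in both depots, and over the 6 exercised rats the levels in the depots had r = 0.98 (rho = 0.943; r = 0.958 without the 2 rats farthest from the SAT median). In sedentary rats r was 0.497. The exact tests of these correlations are among the 8 counted above. The gene was chosen on sight, so their p-values are not given. The fold of EAE over EAC was 1.67 in VAT (interval 1.28 to 2.19) and 1.42 in SAT (interval 0.987 to 2.04), with an adjusted p of 1 after rounding in VAT and of 0.999 in SAT (edgeR). Without SAT EAE replicate 1 the SAT log2 value was 0.62, and without SAT EAE replicate 2, the highest rat, it was 0.26, against 0.51 with all.

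**Figure D3:**
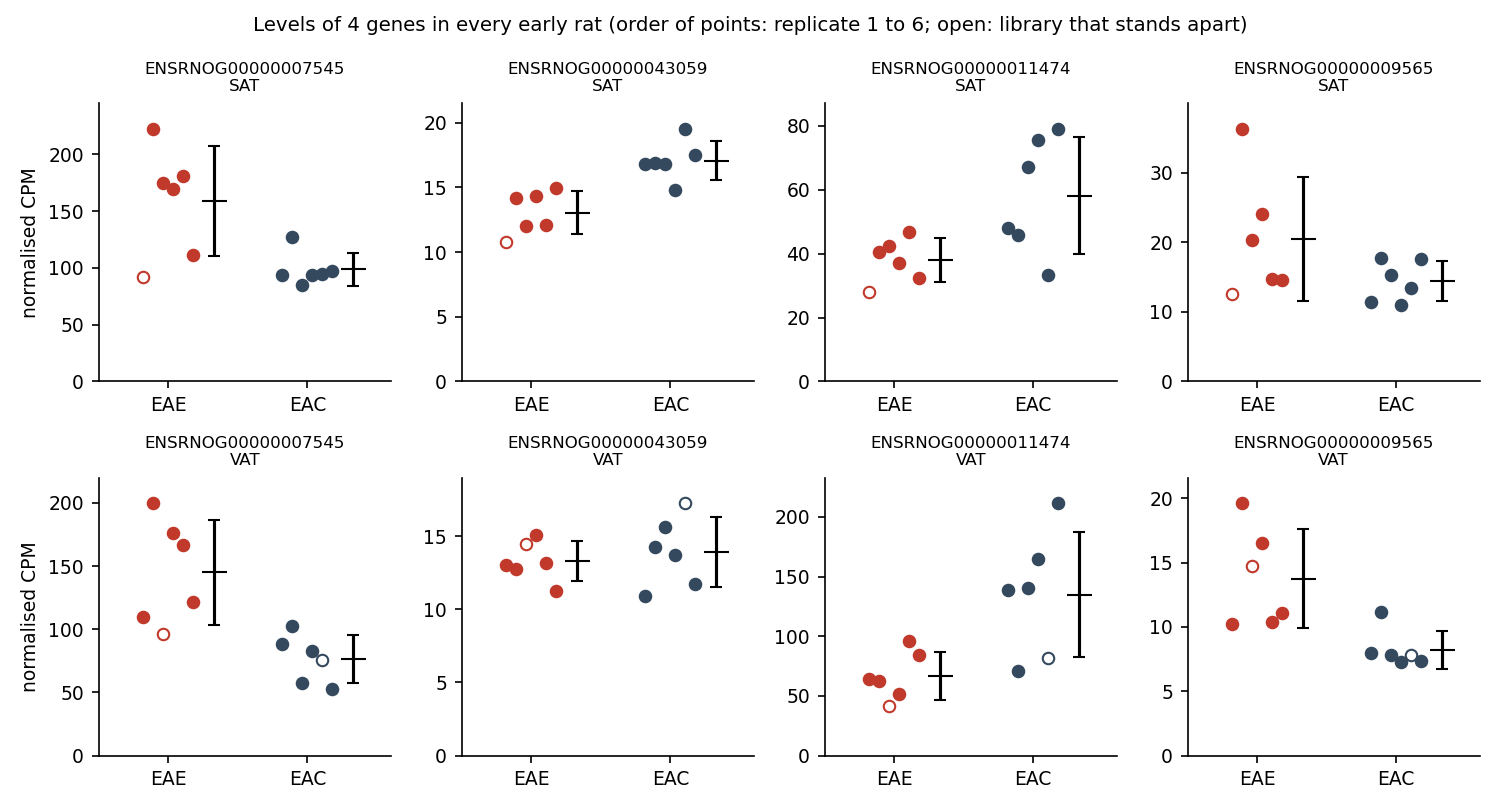
Normalised CPM (y axis, from 0) of the 4 genes in each of the 6 EAE and 6 EAC rats, in SAT above and VAT below, points ordered by replicate number, with the mean and SD beside them and open points for libraries that stood apart. ENSRNOG00000007545 averaged 159 and 145 CPM in EAE rats, against 98.6 and 76.6 CPM in EAC rats, in SAT and in VAT; ENSRNOG00000011474 was below the sedentary median in all exercised rats of both depots.

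Few genes parted the groups completely, fewer than chance alone would give. Complete parting of 6 against 6 rats has a two-sided exact permutation p of 0.00216, which is also the fraction of genes parted by chance. Both directions together stayed below that fraction in each depot, so the genes counted here are not a set shown to respond to exercise. For groups of 5 rats, met below, the chance fraction is larger and was not computed. The counts there are therefore not a rise shown over the counts for 6 rats. All 6 EAE libraries lay above all 6 EAC libraries for 6 genes of SAT (0.0437% of those tested) and for 3 genes of VAT (0.0222%), and below them for 11 genes of SAT (0.0802%) and 3 of VAT (0.0222%). The median log2 value was -0.28 for the 11 lower SAT genes, and of these 8 of the 10 tested in VAT had a lower fitted value there as well, with a median of -0.11. The sign was also shared by 4 of the 6 higher SAT genes (median 0.10 in VAT), and by 2 of the 3 higher and 2 of the 3 lower VAT genes (medians 0.05 and -0.03 in SAT), beside 56.3% of all genes tested in both depots. None of these genes parted the groups in both depots. Without the 2 rats whose VAT libraries stood apart, 89 genes in SAT (0.648% of those tested) and 62 in VAT (0.458%) parted groups that now held 5 rats each, and again 0 did so in both depots.

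The agreement of the effects between depots was weak over all genes and grew with the level of the gene. Over 13366 genes tested in both depots the log2 changes of SAT and VAT correlated at r = 0.16 (rho = 0.177), and 56.3% of genes had the same sign. With all 4 groups in each depot's fit r was 0.0547, while rho was 0.169 and 56.2% of genes had the same sign. Genes of at least 5 CPM in both depots gave r = 0.279 (10479 genes, 57.2% of the same sign) and those of at least 50 CPM r = 0.417 (3202 genes, 60.1%). These values are across genes, which are not replicates, and the depots come from the same rats, so that whatever a rat's depots share enters both sides.

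The agreement depended on which rats were included. Leaving out only the VAT libraries of EAE replicate 3 and EAC replicate 5 gave r = 0.204, and leaving out both depots of these rats gave r = 0.11 with 52.5% of the same sign, or 0.238 with 53.2% at 50 CPM or more. With 1 rat left out at a time r lay between 0.0841 without EAE replicate 2 and 0.187 without EAE replicate 1, and it was 0.0997 without EAE replicate 3. The jackknife standard error of r over rats was 0.102.

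Genes picked in one depot were read in the other, where 56.3% of all genes had the same sign in both. The depots come from the same rats, so the second depot is no independent reading of exercise. What the shared signs come from was not tested. Of 138 genes higher in EAE at an unadjusted p under 0.05 in SAT and tested in VAT, 102 (73.9%) were higher in VAT, with a median log2 change of 0.06 in VAT where it was 0.29 in SAT. For the 170 genes lower in SAT, 97 (57.1%) were lower in VAT, close to the share of all genes, with a median of -0.03. Of the genes picked in VAT, 75 of 116 higher (64.7%) and 69 of 101 lower (68.3%) had the same sign in SAT. Of the 13366 genes tested in both depots, only 5 on the higher side and 5 on the lower were at an unadjusted p under 0.05 in both. Another 1 gene was so in opposite directions. Without both depots of the 2 rats, these counts were 13 and 12 of the 13325 genes tested in both. For opposite directions they were 1 from SAT higher to VAT lower and 1 the other way. The shares of the same sign were then 76.4% of 174 genes higher and 71.3% of 167 lower in SAT, and 62.6% of 238 higher and 60.3% of 219 lower in VAT, beside 52.5% of all genes.

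**Figure D4:**
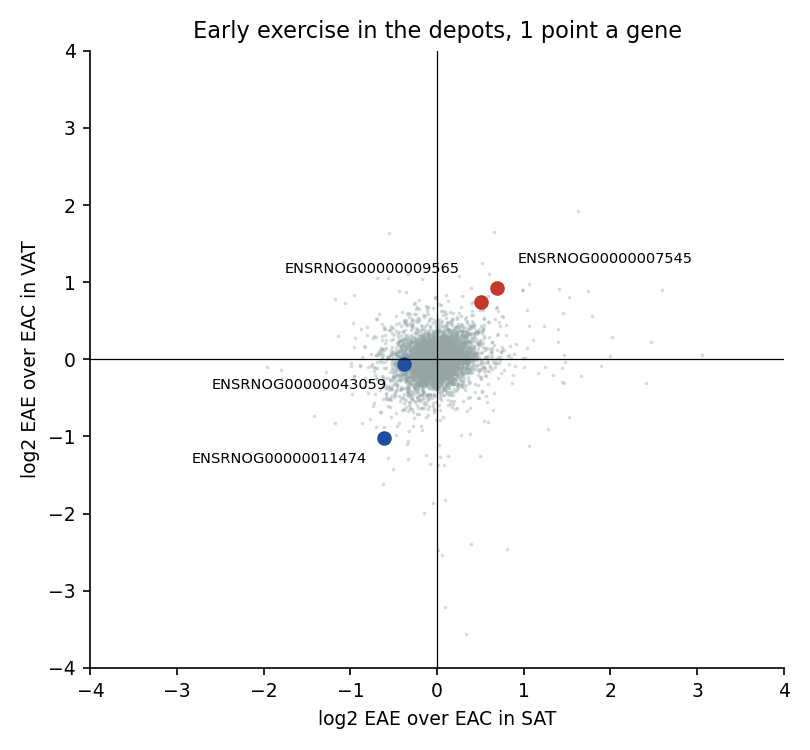
Log2 EAE over EAC in SAT (x axis) against VAT (y axis), 1 grey point for each of the 13366 genes tested in both depots, with the 4 followed genes in colour (red higher, blue lower in VAT). Most points lie near 0 in both; ENSRNOG00000007545 (0.69 and 0.92) and ENSRNOG00000011474 (-0.62 and -1.02) lie apart on the diagonal and ENSRNOG00000043059 (-0.39 and -0.07) does not.

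Whether exercise acted differently in the depots was tested over the 24 libraries. With edgeR 0 of 14137 genes were called (0%), 157 or 1.11% being at an unadjusted p under 0.05, and limma voom called 0 (326). With edgeR the number below the unadjusted limit was 201 without the VAT pair and 291 without both depots of these rats. It was 261 without VAT EAE replicate 3, 320 without VAT EAC replicate 5 and 268 without SAT EAC replicate 3, and calls were 0 in all 5 of these fits. DESeq2 called 2 genes (148 at an unadjusted p under 0.05), but these had 0 counts in 16 and 17 of the 24 libraries and their highest values, 57.6 and 7.72 CPM, in SAT EAE replicate 1 and SAT EAC replicate 6. None of these fits used the pairing of the depots by rat. With the rat as a block edgeR called 0 (165 at an unadjusted p under 0.05). Without the block, the depots differed for ENSRNOG00000007545 by a log2 value of 0.23 with an interval of -0.37 to 0.83. For ENSRNOG00000011474 the value was -0.41 with an interval of -1.14 to 0.33, and neither interval shows that the depots responded alike. With the block the values were 0.27 (unadjusted p = 0.172, edgeR) and -0.41 (unadjusted p = 0.0986, edgeR). Both genes were chosen for a small p in these same libraries.

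Taking both depots together, counts were summed per rat, which leaves 6 values against 6. No gene of 14470 was called by edgeR (0%), with 288 or 1.99% at an unadjusted p under 0.05. That number was 427 without the 2 rats whose VAT libraries stood apart, 458 without EAE replicate 3 alone and 444 without EAC replicate 5 alone, each with 0 calls. The smallest p belonged to ENSRNOG00000007545, 1.74-fold higher in EAE (log2 0.80 ± 0.17 SE, interval 0.42 to 1.18 on the log2 scale, adjusted p of 1 after rounding, edgeR), and the second smallest to ENSRNOG00000011474 at a fold of 0.543. DESeq2 on the sums called 0 (307 at an unadjusted p under 0.05), with ENSRNOG00000007545 at an adjusted p of 0.0712 (DESeq2). A limma voom fit of the 24 libraries with the rat as a block called 0 (559), with this gene at an adjusted p of 0.0549 (limma). The gene did not pass the threshold in any of these 3 tests of both depots together.

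Early exercise was set against late exercise for the same genes. In a joint scaling of the 24 libraries of a depot, ENSRNOG00000007545 stood in SAT at 161 ± 48.5 CPM in EAE, 99.5 ± 13.9 CPM in EAC, 139.6 ± 19.5 CPM in LAE and 218 ± 90.01 CPM in LAC (SD, n = 6 each). In VAT it stood at 143 ± 40.9 CPM in EAE, 75.5 ± 18.6 CPM in EAC, 138 ± 49.3 CPM in LAE and 208 ± 106 CPM in LAC. By their means, exercised rats were thus higher than sedentary rats early and lower than them late in both depots. The late VAT reversal leaned on LAC replicates 4 and 5, at 325 and 357 CPM. VAT LAC replicates 1, 2, 3 and 6 had 130, 135, 121 and 179 CPM, all inside the LAE range (83.4 to 220 CPM). LAC replicates 4 and 5 were also the highest of the SAT LAC libraries, at 246 and 387 CPM. The remaining SAT LAC values, 149 to 199 CPM, still lay above the SAT LAE mean. Replicates 1, 2 and 3 of them, at 167, 149 and 159 CPM, were inside the SAT LAE range (118 to 176 CPM). Replicate 6, at 199 CPM, was above that range. The log2 change of exercise was 0.69 ± 0.21 early and -0.64 ± 0.21 late in SAT, and 0.92 ± 0.28 early and -0.59 ± 0.28 late in VAT (SE). The late value had an adjusted p of 0.0522 in SAT and 0.429 in VAT (edgeR).

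The test of the difference between the phases did not call ENSRNOG00000007545 with edgeR. Early minus late, it was 1.33 ± 0.30 in SAT (adjusted p = 0.161, edgeR; 0.132 with limma voom) and 1.52 ± 0.40 in VAT (adjusted p = 0.474, edgeR; 0.134 with DESeq2; 0.189 with limma voom). DESeq2 called it in SAT (adjusted p = 0.00504). SAT LAE replicates 4 and 6 stood apart among the 24 SAT libraries, and without them the SAT difference was 1.30 (adjusted p = 0.169, edgeR). For ENSRNOG00000011474 the same difference was -1.81 ± 0.43 in VAT (adjusted p = 0.441, edgeR; 0.0804 with DESeq2) and -0.88 ± 0.49 in SAT (adjusted p = 0.349, edgeR). Without SAT LAE replicates 4 and 6 the SAT difference of this gene was -1.34 (adjusted p = 0.0726, edgeR). It stood at 12.3 and 8.57 CPM in these 2 libraries, against 41.1 to 60.0 CPM in the other SAT LAE rats. In VAT its level was 65.8 ± 20.04 CPM in EAE, 133 ± 51.9 CPM in EAC, 88.4 ± 37.4 CPM in LAE and 51.1 ± 17.7 CPM in LAC. Over all genes edgeR called 0 of 14372 in SAT (0%), while DESeq2 called 184 and limma voom 1. At an unadjusted p under 0.05 edgeR had 2411 SAT genes or 16.8%, 857 higher and 1554 lower in early minus late. Without SAT LAE replicates 4 and 6 these were 1463 of 14505 genes or 10.1%, 754 higher and 709 lower, with 4 calls. The SAT values with all libraries thus depended in part on these 2 late libraries. In VAT edgeR called 0 of 13883 (0%), with 975 or 7.02% at an unadjusted p under 0.05. There DESeq2 called 2 and limma voom 0.

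**Figure D5:**
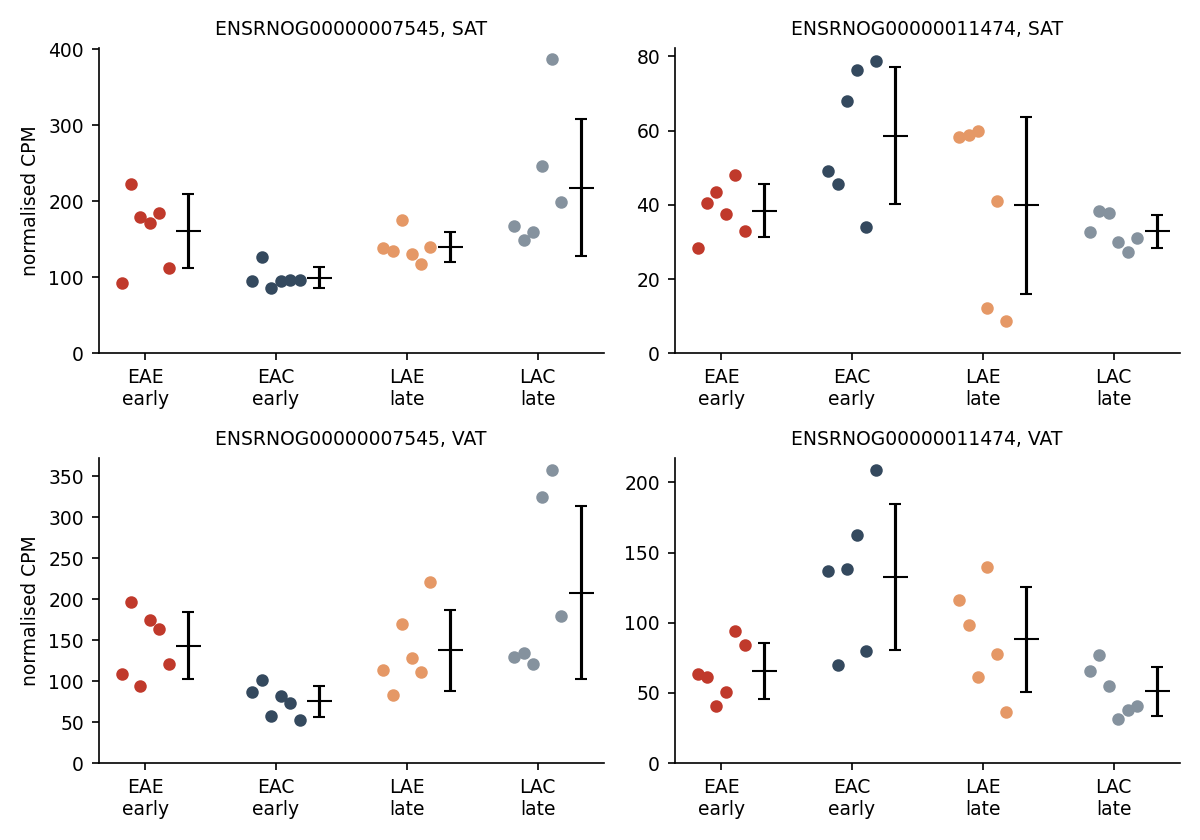
Normalised CPM (y axis, from 0) of ENSRNOG00000007545 and ENSRNOG00000011474 in every rat of the 4 groups, exercised then sedentary at each phase, SAT above and VAT below, with mean and SD. The first gene averages 161 CPM in EAE against 99.5 CPM in EAC, and 139.6 CPM in LAE against 218 CPM in LAC, in SAT; the means of the second in VAT are 65.8 CPM in EAE, 133 CPM in EAC, 88.4 CPM in LAE and 51.1 CPM in LAC.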

How the data were processed

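PolyA-selected RNA was sequenced as 50-nt single-end reads at an average of 21 M reads, from RNA with an integrity number over 9, per the labels' protocols. The authors deposited a table of estimated counts, all whole, with 23481 Ensembl IDs and 48 libraries. Salmon 1.4.0 and the build rn6 come from the submitters' processing notes; the annotation release is not given in the sources used. Per length values were not computed, so levels are compared within a gene only. The table of rat genes at hand (47357 rows, 0 with an Ensembl ID) matched 0 IDs, so gene lists and marker lists were not analysed and no sequence is printed. The 24 libraries, gene lists and rules were chosen with earlier results of these data known.

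The deposited expected counts went into edgeR 4.0.16 under R 4.3.3, with filterByExpr, TMM factors, the quasi-likelihood test and Benjamini-Hochberg adjustment at 0.05. The fit of a depot held its 12 early libraries, since the late SAT groups hold libraries that widen a shared spread. The fit of all 4 groups is an alternative. There the spread (common biological coefficient of variation) rose in SAT, to 36% in place of 24.4%. It fell in VAT, to 21.1% in place of 24.5%, so the reason given covers SAT only. The depot test used the 24 early libraries, with the rat as a block only in an alternative, and the phase tests the 24 libraries of a depot. SE is the log2 change over the square root of F, and intervals are 95%. A library stood apart at over 5 median absolute deviations below the depot's median correlation, over the 12 early libraries for early comparisons and over all 24 for the phase tests. The named rule for IDs took, per depot, the 1 higher and 1 lower gene of smallest p at 5 CPM or more. DESeq2 1.42.0 and limma 3.58.1 were alternatives, and the edgeR fit of each depot was tested on simulated data.

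Replicates are rats. In each of the 60 pairs of early libraries of 1 group, counts differed beyond sampling noise, with chi-square over its degrees of freedom between 8.15 and 254. The labels' protocols give 6 rats a group for both depots, and the library letters were taken to name the rat; 9 of 12 rats had a SAT profile that correlated best with their own VAT within the group (r from 0.116 to 0.268), and own r was -0.134 to -0.0281 in the other 3.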

Additional observations from a re-analysis of the deposited data

Results flagged for a closer look

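Among 28 checks of groups of 6 libraries (3 library measures and 4 genes in 4 groups), 8 had 1 library at a large distance from its group by Dixon's criterion; by chance about 1 in 20 groups would. SAT EAE replicate 1 had 14653 genes with a count, against 16303 to 16582 in the other 5 EAE libraries, and a median correlation of 0.957, against 0.972 to 0.977. VAT EAE replicate 3 had 17034 genes, against 15959 to 16240, and a correlation of 0.962, against 0.978 to 0.98. VAT EAC replicate 5 had 16864 genes, against 16066 to 16315, and a correlation of 0.965, against 0.979 to 0.98. ENSRNOG00000007545 was at 127 CPM in SAT of EAC replicate 2, against 84.9 to 97.4 CPM in the other 5 sedentary rats. ENSRNOG00000009565 was at 11.2 CPM in VAT of the same rat, against 7.26 to 7.97 CPM.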

How the results depend on the processing

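Of 148 summary values under alternatives, 137 stayed within 1.5 times the reported count or within the error of the value. The counts of 0 for early exercise in SAT, in VAT and summed per rat held under every alternative run, the replicate block included. The block left 0 calls, and 349 SAT genes and 250 VAT genes fell below the unadjusted limit; the numbers name different rats in EAE and EAC, and 2 of 6 EAE libraries in each depot correlated best with the EAC library of their number. The depot difference had 2 calls with DESeq2. The phase difference in SAT had 184 with DESeq2, 1 with limma voom, 4 without the SAT libraries that stood apart and 0 to 1 with 1 early library left out (1 without EAE replicate 1; late libraries were not left out singly); in VAT it had 2 with DESeq2. The correlation between depots was 0.279 at 5 CPM or more, 0.417 at 50 CPM or more (chosen after seeing the data) and 0.0547 with all 4 groups in the fits. With all 4 groups Spearman's rho was 0.169, against 0.177 in the main fit. Genes whose groups did not overlap numbered 89 in SAT and 62 in VAT without the 2 rats; fewer rats had to be parted. Of 500 values of the 4 genes, 4 changed sign and 1, ENSRNOG00000007545 in the SAT phase difference with DESeq2 (log2 1.32, adjusted p = 0.00504), passed the threshold. ENSRNOG00000043059 in VAT was 0.0041 with limma voom, and -0.13 to 0.0071 on the log2 scale with 1 library left out. ENSRNOG00000009565 in the SAT phase difference was 0.19 with limma voom and 0.60 without the SAT libraries that stood apart, against -0.67 with all. In those libraries, SAT LAE replicates 4 and 6, it stood at 68.8 and 59.4 CPM, against 8.57 to 17.7 CPM in the other SAT LAE rats. The cause was not tested. Intervals were widest for genes under 5 CPM; depth itself was not varied.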

Other observations

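In SAT the early libraries also differed along the second principal component of log2 CPM (21.2% of the variance; the first held 33.2%) in a way that did not follow exercise. EAE replicates 1, 2 and 6 lay at -24.1, -24.8 and -14.9 and EAC replicates 5 and 6 at -44.4 and -28.9, while the other 7 libraries lay between 14.3 and 24.3. These 5 libraries had 61, 94, 46, 123 and 86 genes over 4-fold above the SAT median, against 3 to 31 in the other 7. On the first component SAT EAE replicate 1 lay at -91.6, and the other 11 libraries between -8.4 and 33.7. In VAT the first component (37.6%) held EAE replicate 3 at 64.4 and EAC replicate 5 at 55.7, against -24 to 4.94 in the other 10.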
